A study of Mus musculus with 20 samples.

Results

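The 10 keratins Krt5, Krt14, Krt17, Krt15, Krt6a, Krt6b, Krt7, Krt8, Krt18 and Krt19, which mark the luminal and basal layers of mammary epithelium and the response to injury, were followed across 20 mouse mammary libraries. Krt5, Krt14, Krt17 and Krt15 are taken as basal, Krt6a and Krt6b as stress, and Krt7, Krt8, Krt18 and Krt19 as luminal keratins. They are given as a list of names, with no threshold on a measured value. They are 10 of the 45318 genes in the count files and 10 of the 54 genes named Krt and a number, and all 10 were among the 18698 genes with enough counts to be tested.

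Keratins are the intermediate filament proteins of epithelia, and a filament forms only from pairs of a type I and a type II chain. Krt8 (type II) pairs with Krt18 (type I) in simple and luminal epithelium, where the type I keratin Krt19 and the type II keratin Krt7 are also made. Krt5 (type II) pairs with Krt14 (type I) in the basal layer of stratified epithelium and in the myoepithelial cells that surround mammary ducts, often with the type I keratins Krt15 and Krt17. The type II keratins Krt6a and Krt6b are known for their induction in wounded or hyperproliferative epidermis.

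The study sequenced polyadenylated RNA from mammary tumors and organoids of 3 transgenic models and from normal mammary organoids, all on the FVB strain. Organoids are gland or tumor fragments cultured in Matrigel, an extract of basement membrane, to which FGF2 was added, and tumor sections were 30 µm cryosections that hold every cell type of the tumor. Wild-type organoids (WT, 6 days of culture) gave 3 libraries. The MMTV-PyMT model, in which the mouse mammary tumor virus promoter drives the polyoma middle T antigen, gave 3 libraries of tumor sections, 3 of organoids taken on day 0 directly after preparation, 3 of organoids at day 6 and 2 of organoids whose titles give no day and whose culture time is given as 6 days (undated). MMTV-Neu-NDL mice, which carry an activated Neu (ErbB2) transgene under the same promoter, gave 3 libraries of organoids at 6 days. Tumors of the genotype MMTV-Cre;Flox-Neo-Neu-NT, where Cre made under that promoter allows the Neu-NT oncogene to be expressed, were taken as sections (3 libraries). Ages are not given in the sources used here, nor whether replicates came from separate animals, so a p-value covers only how much these samples varied.

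The libraries held 17478357 to 48341438 reads counted on genes. Levels are given as CPM, reads of a gene scaled to a fixed library total, on library sizes adjusted by the TMM method, and comparisons as log2 fold changes with standard errors and Benjamini-Hochberg adjusted p-values from 1 edgeR quasi-likelihood fit of all 20 libraries, called at an adjusted p under 0.05. Reads on Erbb2 were used to check the labels: they reached 4459 to 8515 CPM in Neu-NDL organoids and 195 to 1077 CPM in Neu-NT sections, against 68.5 to 146 CPM in the other 14 libraries. The lowest Neu-NT value was that of replicate 3, at 2.07 times the WT mean. Erbb2 is itself on chromosome 11, where genes around the keratin cluster were raised in that section (given below). Its level therefore cannot check the label of that section. That section stood apart from its group in several keratins, and PyMT organoid day 6 replicates 2 and 3 lay at opposite ends of theirs. Keratin results that turn on 1 of these libraries are also given without it. The libraries were singled out after their keratin values were seen, so calls gained without them are no independent support for a change. All 18 luminal markers and all 16 basal and myoepithelial markers examined had counts in every group. The summed luminal markers varied little, from 3402 to 6091 CPM, and the summed basal markers more, from 771 to 3758 CPM. In bulk RNA, fewer cells of a type and less RNA per cell cannot be told apart.

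Of the members, 6 lie in the keratin cluster on chromosome 15 and 4 in the type I cluster on chromosome 11 (GRCm38, the same assembly as mm10, GENCODE M21). On the reverse strand of chromosome 15 are Krt6b (101676023 to 101680287), Krt6a (101689910 to 101694307), Krt5 (101707070 to 101712898) and Krt8 (101996698 to 102004482). Krt7 (101411043 to 101430313) and the type I gene Krt18 (102028180 to 102032027) are on its forward strand. Chromosome 11 holds Krt15 (100131758 to 100135928), Krt19 (100140810 to 100148665), Krt14 (100203162 to 100207548) and Krt17 (100256217 to 100261029), all on the reverse strand.

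Krt6a and Krt6b are close copies, which bears on what their counts mean. Their coding sequences were identical at 97.8% of 1659 aligned bases, and an unbroken run of 280 coding bases in exon 1 was the same in both. Even the 100 coding bases in 1 exon that differ most, coding bases 324 to 423 of each gene, hold only 7 differences, shown in capitals in the sequences of Krt6a (chr15:101693826-101693925, exon 1, reverse strand) and Krt6b (chr15:101679801-101679900, exon 1, reverse strand):
Krt6a: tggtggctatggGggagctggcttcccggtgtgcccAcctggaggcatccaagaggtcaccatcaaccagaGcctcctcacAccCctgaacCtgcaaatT
Krt6b: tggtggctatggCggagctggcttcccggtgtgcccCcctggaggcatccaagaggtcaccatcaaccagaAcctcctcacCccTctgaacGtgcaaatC
Of the 50-base stretches of the Krt6a transcript, 43.6% also occur in Krt6b, so the split of reads between these copies is uncertain. The files count reads with several alignments apart from genes. Shared stretches with any other gene made up 26.9% of Krt8, 14.4% of Krt14 (mostly with Krt16, an injury keratin with 86.2% identical coding bases), 8.52% of Krt5 and 3.99% of Krt17, and under 1% of Krt7, Krt15, Krt18 and Krt19. The basal and luminal partners are far less alike, with 59.4% of aligned coding bases identical between Krt5 and Krt14 and 56.6% between Krt8 and Krt18.

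The 4 basal keratins were lower in all tumor sections than in every WT organoid library, apart from Krt14 and Krt17 in Neu-NT section 3, and the cultured PyMT organoids spanned both levels. Krt5, the basal type II keratin, measured 849, 954 and 779.6 CPM in the 3 WT organoid libraries. It was 36.4, 34.5 and 5.78 CPM in PyMT sections and 31.3, 56.9 and 60.2 CPM in PyMT organoids at day 0. At day 6 it was 272, 1834 and 9.01 CPM, and in the undated PyMT organoids 611 and 791 CPM. Thus day 6 replicate 2 lay above every WT library, while day 6 replicate 3 lay below every day 0 library. Krt5 was 24.9, 226 and 15.9 CPM in Neu-NDL organoids and 0.0756, 0.225 and 26.4 CPM in Neu-NT sections, where the first and second sections held only 2 and 5 reads.

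Krt14, the type I partner of Krt5, followed a like course except in 1 section. It measured 1173, 795 and 610.1 CPM in WT organoids, 57.1, 113 and 12.2 CPM in PyMT sections and 60.3, 167 and 111 CPM at day 0. The day 6 organoids were at 758, 4423 and 19.2 CPM and the undated ones at 731 and 1569.7 CPM, so that 4 of these 5 libraries fell within or above the WT range. Neu-NDL organoids had 143, 272 and 15.6 CPM, all below WT. Neu-NT sections had 0.907, 3.20 and 1453 CPM: replicates 1 and 2 were the lowest of all 20 libraries and replicate 3 was above all 3 WT libraries.

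Krt17, a type I keratin of basal and injured epithelium, was at 168, 104 and 85.5 CPM in WT organoids, 14.9, 15.6 and 5.51 CPM in PyMT sections and 18.3, 76.5 and 25.5 CPM at day 0. It reached 102, 1003 and 12.1 CPM at day 6, 74.4 and 143 CPM in the undated organoids, 11.7, 22.9 and 4.84 CPM in Neu-NDL organoids and 10.3, 31.2 and 1045 CPM in Neu-NT sections. Its 2 highest libraries, day 6 replicate 2 and Neu-NT replicate 3, were alike in level. For Krt15, a type I keratin of basal layers, no tumor library reached a WT value. It measured 80.1, 58.2 and 58.9 CPM in WT organoids, 11.8, 20.0 and 0.272 CPM at day 6 and 4.53 and 11.7 CPM in undated organoids, and 3.43, 4.60 and 5.15 CPM at day 0. PyMT sections had 0.454, 2.31 and 0.198 CPM, Neu-NDL organoids 2.34, 16.1 and 2.05 CPM and Neu-NT sections 0.0378, 0.270 and 27.9 CPM, so that its highest tumor value was again Neu-NT replicate 3.

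**Figure D1:**
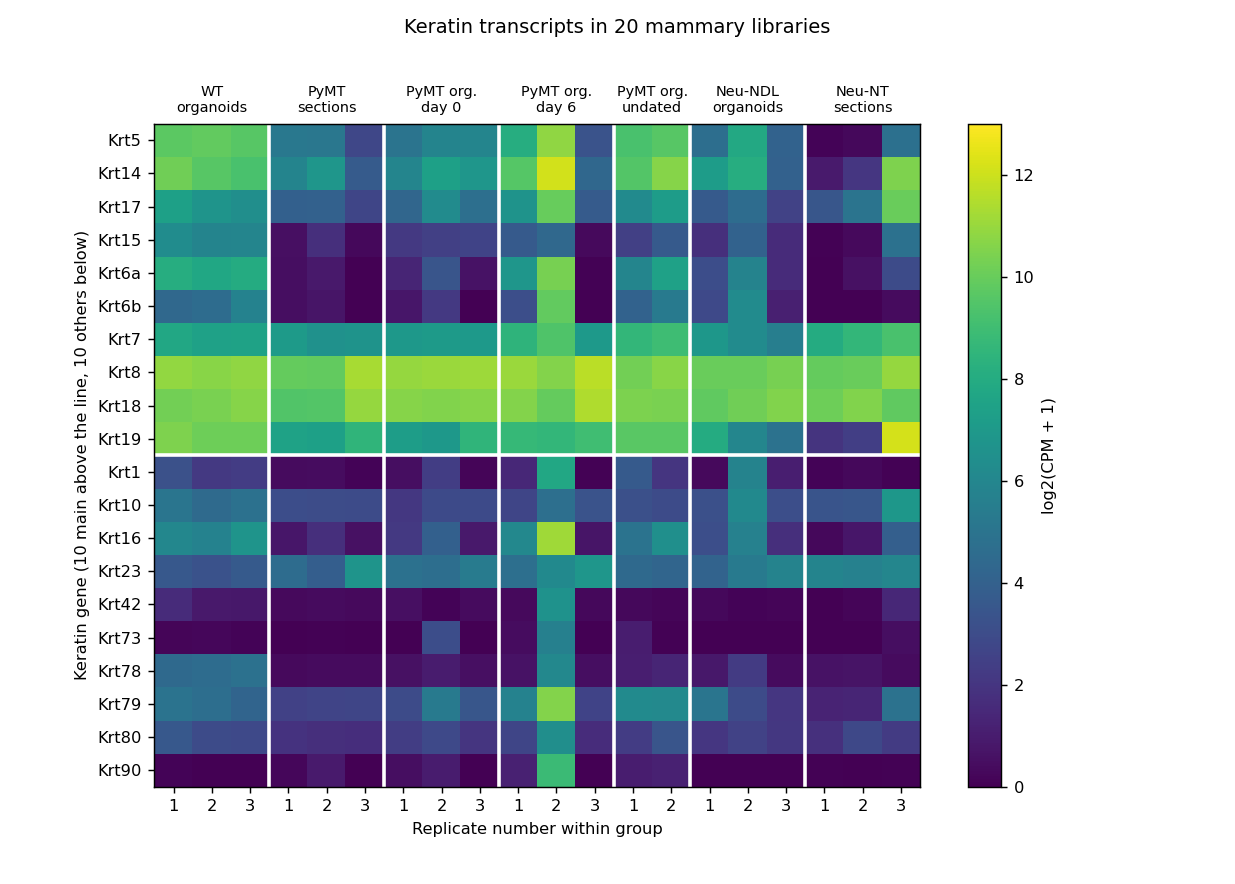
Levels of the 10 keratins (above the white line) and of 10 other keratins with a mean of at least 10 CPM in a group (below it) in each of the 20 libraries, coloured as log2(CPM + 1), with columns grouped by sample type and numbered by replicate. Krt8 and Krt18 stayed bright in every column, whereas Krt5, Krt14 and Krt6a were dark in tumor sections 1 and 2 of Neu-NT and bright in WT organoids and PyMT day 6 replicate 2.

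The stress keratins spanned the widest range. Krt6a was at 276, 210.1 and 257 CPM in WT organoids, a level that only day 6 replicate 2 exceeded among the tumor libraries. It was 0.374, 0.854 and 0 CPM in PyMT sections and 1.56, 9.65 and 0.568 CPM at day 0. The day 6 libraries were at 112, 1282 and 0.0388 CPM, where replicate 3 held 1 read, and the undated ones at 59.2 and 171 CPM. Neu-NDL organoids had 7.39, 55.2 and 2.05 CPM and Neu-NT sections 0, 0.496 and 6.83 CPM. In the libraries with 0 reads, 3 reads would have been 0.119 CPM in PyMT section 3 and 0.113 CPM in Neu-NT section 1.

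Krt6b was lower than Krt6a in WT organoids, at 19.7, 23.2 and 53.5 CPM, and had the same single peak, with 7.87, 939 and 0 CPM at day 6 and 15.8 and 39.2 CPM in undated organoids. Its levels were 0.400, 0.653 and 0 CPM in PyMT sections, 0.728, 3.54 and 0 CPM at day 0, 6.20, 77.3 and 1.18 CPM in Neu-NDL organoids and 0, 0 and 0.311 CPM in Neu-NT sections. Neu-NDL replicate 2 was the only Neu library above the WT range.

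Among the luminal keratins, Krt8 and Krt18 varied least. Krt8, the main type II keratin of luminal cells, measured 1899, 1664 and 1844 CPM in WT organoids, 971, 935 and 2538 CPM in PyMT sections, 1949, 2102 and 2216 CPM at day 0 and 2118, 1522 and 3204 CPM at day 6. It was 1202 and 1650.5 CPM in undated organoids, 1029.8, 1046 and 1312 CPM in Neu-NDL organoids and 971, 1058 and 1942 CPM in Neu-NT sections. Its partner Krt18 measured 1199, 1317 and 1592 CPM in WT organoids, 700.2, 740.1 and 1957 CPM in PyMT sections, 1576, 1503 and 1595 CPM at day 0, 1557, 989.7 and 2771 CPM at day 6 and 1381 and 1334 CPM in undated organoids. The Neu-NDL organoids were at 909, 1159.5 and 1489 CPM and the Neu-NT sections at 1130.0, 1469.8 and 912 CPM. In both genes day 6 replicate 3 was highest and PyMT sections 1 and 2 were among the lowest.

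Krt7, a type II keratin of ducts and other simple epithelia, measured 219.8, 172 and 178 CPM in WT organoids, 133, 95.6 and 102 CPM in PyMT sections and 121, 135 and 129.9 CPM at day 0. It was 354, 693 and 131 CPM at day 6 and 389.8 and 489.9 CPM in undated organoids, so that 4 of the 5 PyMT libraries of 6 days exceeded all WT, PyMT section and day 0 libraries. Neu-NDL organoids had 118, 76.9 and 45.8 CPM, below WT, and Neu-NT sections 253, 384 and 608 CPM, above WT. Krt19, a luminal type I keratin, was at 1433, 1107 and 1130.1 CPM in WT organoids, 182, 169 and 365 CPM in PyMT sections, 152, 122 and 364 CPM at day 0, 412, 389 and 519 CPM at day 6 and 806 and 824 CPM in undated organoids. Every PyMT library was below every WT library. Neu-NDL organoids had 257, 61.1 and 29.3 CPM and Neu-NT sections 2.84, 4.24 and 4606 CPM. Neu-NT sections 1 and 2 were the lowest and section 3 the highest of the 20 libraries.

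**Figure D2:**
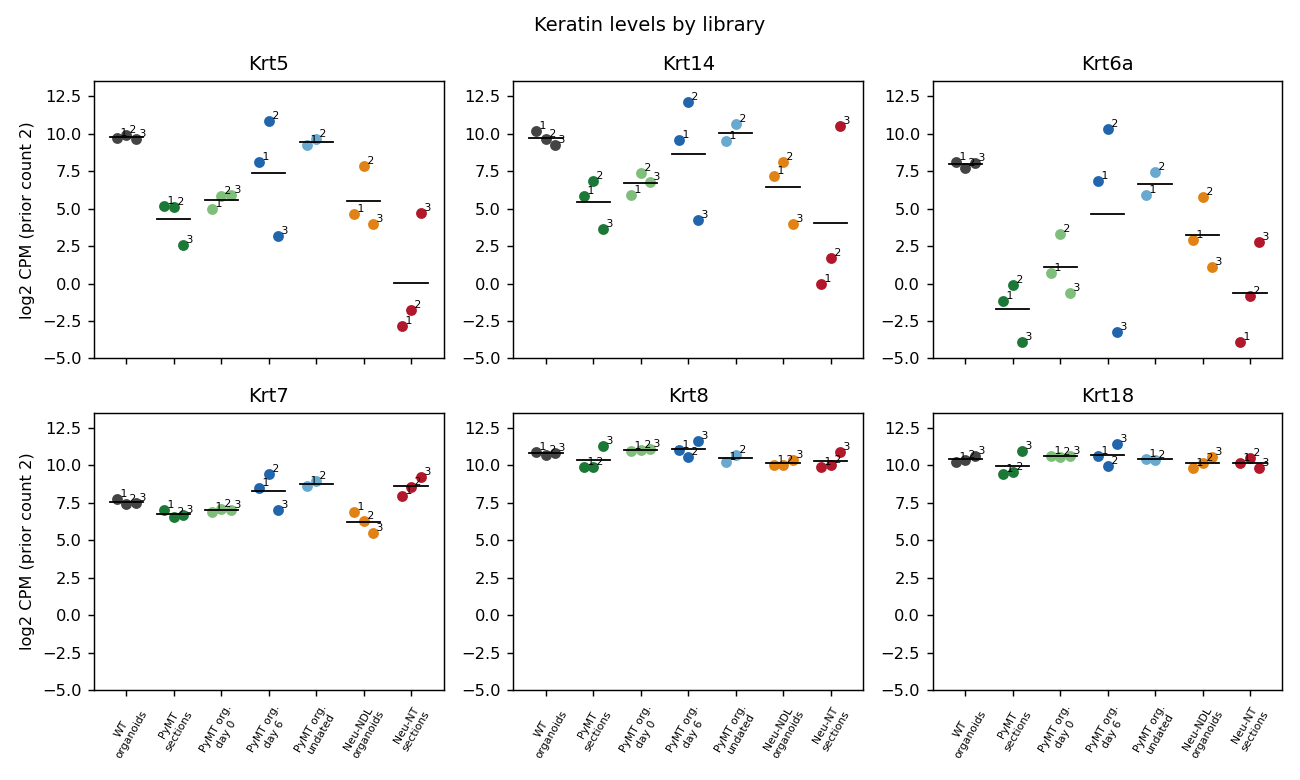
Log2 CPM (prior count 2) of 6 keratins in the 20 libraries, with points numbered by replicate and a bar at each group mean. Krt5, Krt14 and Krt6a spread over many log2 units within the PyMT day 6 and Neu-NT groups, with PyMT replicates 2 and 3 and Neu-NT replicates 1 and 3 at opposite ends, while Krt8 and Krt18 stayed within a narrow band.

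Levels were compared between genes per kilobase of transcript. In WT organoids Krt18 (953 ± 140 CPM per kb, SD, n = 3) and Krt8 (920 ± 62.6) led, followed by Krt19 (776 ± 115), Krt14 (506 ± 169), Krt5 (392 ± 39.9), Krt6a (109 ± 14.8), Krt17 (77.0 ± 28.0), Krt7 (46.4 ± 6.37), Krt15 (38.7 ± 7.32) and Krt6b (14.4 ± 8.32). Among neighbours in this order the ranges of the 3 libraries were separate for Krt19 and Krt14, Krt5 and Krt6a, Krt17 and Krt7, and Krt15 and Krt6b, and overlapped for the others. Krt7's place depends on the transcript length used, since its longest coding transcript is 4094 bases and the union of its exons 7049. Reads with several alignments were counted apart from genes, so keratins with shared stretches may be read too low. Stretches of 50 bases shared with another gene made up 49.5% of Krt6a, 50.1% of Krt6b, 26.9% of Krt8 and 14.4% of Krt14, against 0.720% of Krt18. Places that turn on these genes, among them Krt18 above Krt8, are therefore uncertain, and the size of this effect was not tested. Krt18 and Krt8 also led in PyMT sections (788 ± 497 and 756 ± 467), in day 0 organoids (1084 ± 33.9 and 1067 ± 68.4) and in Neu-NDL organoids (825 ± 203 and 577 ± 81.0), and the next keratin there was at 151 ± 69.5 (Krt19), 135 ± 83.7 (Krt19) and 84.4 ± 75.4 (Krt14).

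Summed per kilobase, basal and stress keratins were 25.1 to 33.0% of the 10 keratins in WT organoids. They were 0.460 to 7.75% in PyMT sections, 2.83 to 7.56% at day 0, 1.26 to 19.8% in Neu-NDL organoids and 0.534, 1.34 and 24.9% in Neu-NT sections 1 to 3. The 6 day PyMT organoids ran from 0.593% (day 6 replicate 3) through 21.7, 26.7 and 37.9% to 73.0% (day 6 replicate 2). The highest share and the third lowest of the series thus came from 1 group. Shared stretches may lower Krt6a, Krt6b, Krt8 and Krt14 in these sums, so the sizes of the shares are uncertain. The ratio of Krt8 to Krt18 CPM stayed between 0.720 and 2.13 in all 20 libraries. That of Krt14 to Krt5 stayed between 0.783 and 5.73 in 17 libraries and was 12.0, 14.2 and 55.2 in the Neu-NT sections, where the first pair of values rests on 2 and 5 Krt5 reads.

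No keratin passed the test between 6 day PyMT organoids (day 6 and undated groups averaged with equal weight) and WT organoids, where 3.89% of all tested genes did. At an unadjusted p under 0.05 there were 2 of 10 (Krt15 and Krt7), and DESeq2 also called 0. In 2 members, Krt15 and Krt19, every PyMT library was below every WT library, which held in that direction for 9.87% of all genes. Krt15 had a log2 fold change of -2.82 ± 1.32 (SE; edgeR adjusted p = 0.238), and Krt19 a log2 fold change of -1.03 ± 1.33 (SE; edgeR adjusted p = 0.710). Krt5 and Krt14 had differences of -0.29 ± 1.35 and 0.72 ± 1.61 on the log2 scale. Krt7 had a log2 fold change of 1.13 ± 0.42 (SE; edgeR adjusted p = 0.142), and without day 6 replicate 3 it was called (1.34, edgeR adjusted p = 0.0211), in a fit that called 10.8% of all genes, whereas without day 6 replicate 2 it was at 0.80 (edgeR adjusted p = 0.223). Without day 6 replicate 2 the differences of Krt14, Krt17 and Krt6b turned negative (-0.33, -0.58 and -1.61, none called).

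Day 6 replicate 3 also differed in markers of other cells. Its 8 fibroblast markers summed to 2753 CPM against 63.0 to 174 CPM in the other 4 libraries, its 6 endothelial markers to 147 against 4.94 to 6.54 CPM and its 8 macrophage markers to 462 against 95.8 to 265 CPM. Its 16 basal and myoepithelial markers summed to 771 CPM against 2771 to 3758. None of the 8 fibroblast, 6 endothelial or 8 macrophage markers was at 0 across the day 6 libraries. Their part in its keratin levels was not tested.

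No keratin passed the test between Neu-NDL and WT organoids either (4.52% of all genes did; 2 of 10 at an unadjusted p under 0.05, Krt17 and Krt7; 0 by DESeq2). All 10 differences were negative, with a median of -2.88 against 0.02 over all tested genes, and 8 of 10 members were lower in every Neu-NDL library, as were 19.2% of all genes. Krt7 had a log2 fold change of -1.24 ± 0.46 (SE; edgeR adjusted p = 0.126). Krt5 had a log2 fold change of -3.28 ± 1.65 (SE; edgeR adjusted p = 0.275), and Krt19 a log2 fold change of -3.40 ± 1.65 (SE; edgeR adjusted p = 0.254). Krt6b (-0.19 ± 1.76) and Krt18 (-0.21 ± 0.38) overlapped WT. With PyMT day 6 replicate 3 and Neu-NT section 3 out of the fit, 5 were called (Krt5, Krt17, Krt15, Krt7 and Krt19). That fit called 14.5% of all genes, and Krt5 had a difference of -3.26 in it. Those libraries were picked after their keratin values were seen, so these calls are no independent support. The 8 macrophage markers, all with counts, summed to 359 to 1828 CPM in these organoids against 167 to 258 CPM in WT, and their part was not tested.

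In PyMT sections against WT organoids 2 keratins fell, Krt15 and Krt6a, where 6.05% of all genes fell and 12.5% changed in either direction. Krt15 had a log2 fold change of -6.10 ± 1.84 (SE; edgeR adjusted p = 0.0412). Krt6a had a log2 fold change of -9.30 ± 2.53 (SE; edgeR adjusted p = 0.0289); its 3 sections held 14, 17 and 0 reads. All 10 differences were negative with a median of -3.57 (0.03 over all genes), and 8 of 10 were lower in every section, against 23.1% of all genes. Krt5 had a log2 fold change of -5.07 ± 1.80 (SE; edgeR adjusted p = 0.0729), and Krt14 a log2 fold change of -3.82 ± 1.96 (SE; edgeR adjusted p = 0.202), while Krt8 and Krt18 differed by -0.28 ± 0.36 and -0.27 ± 0.38. Both calls were lost when any single section or WT library was left out. The comparison sets tissue against culture as well as tumor against normal gland, and these cannot be told apart. The sections had 1972 to 5992 summed CPM of the 8 fibroblast markers (467 to 847 in WT) and 508 to 805 of the 8 macrophage markers, none of them at 0, and their part was not tested.

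In Neu-NT sections against WT organoids 3 keratins fell, Krt5, Krt6a and Krt6b (8.47% of all genes fell and 19.0% changed). DESeq2 also called Krt5 and Krt6a and gave no adjusted p for Krt6b. Krt5 had a log2 fold change of -6.61 ± 1.94 (SE; edgeR adjusted p = 0.0266). Krt6a had a log2 fold change of -6.70 ± 2.20 (SE; edgeR adjusted p = 0.0442) and Krt6b a log2 fold change of -8.41 ± 2.82 (SE; edgeR adjusted p = 0.0475), the latter from 0, 0 and 6 reads. Krt5, Krt15, Krt6a and Krt6b were lower in every section (21.3% of all genes) and Krt7 was higher in every section (19.4%), with a log2 fold change of 1.13 ± 0.46 (SE; edgeR adjusted p = 0.0938), and of 0.75 without section 3 (edgeR adjusted p = 0.286). The 4 type I members of chromosome 11 depended on replicate 3: Krt19 differed by 0.33 ± 1.50 with it and by -8.43 without it (edgeR adjusted p = 0.000104). Without that section Krt14 differed by -8.72 (edgeR adjusted p = 0.00841) in place of -0.82 ± 1.76, Krt15 by -8.76 (0.00459) in place of -2.81 ± 1.55, and Krt17 by -2.53 (0.175) in place of 1.60 ± 1.38. Leaving it out also moved Krt5 to -12.49 and Krt6a to -10.03, both called, and Krt6b to -12.92 (edgeR adjusted p = 0.0881). That fit called 21.8% of all genes. Leaving out Neu-NT replicate 1 or 2, or WT replicate 2 or 3, ended all 3 calls, and without WT replicate 1 only Krt5 was called. Krt8 and Krt18 differed by -0.45 ± 0.37 and -0.23 ± 0.38, and without section 3 by -0.83 and -0.07 (edgeR adjusted p = 0.138 and 0.926). Here too genotype and preparation cannot be told apart. The 8 macrophage markers summed to 542 to 1305 CPM in these sections and the 8 fibroblast markers to 289 to 2764 CPM, and their part was not tested.

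**Figure D3:**
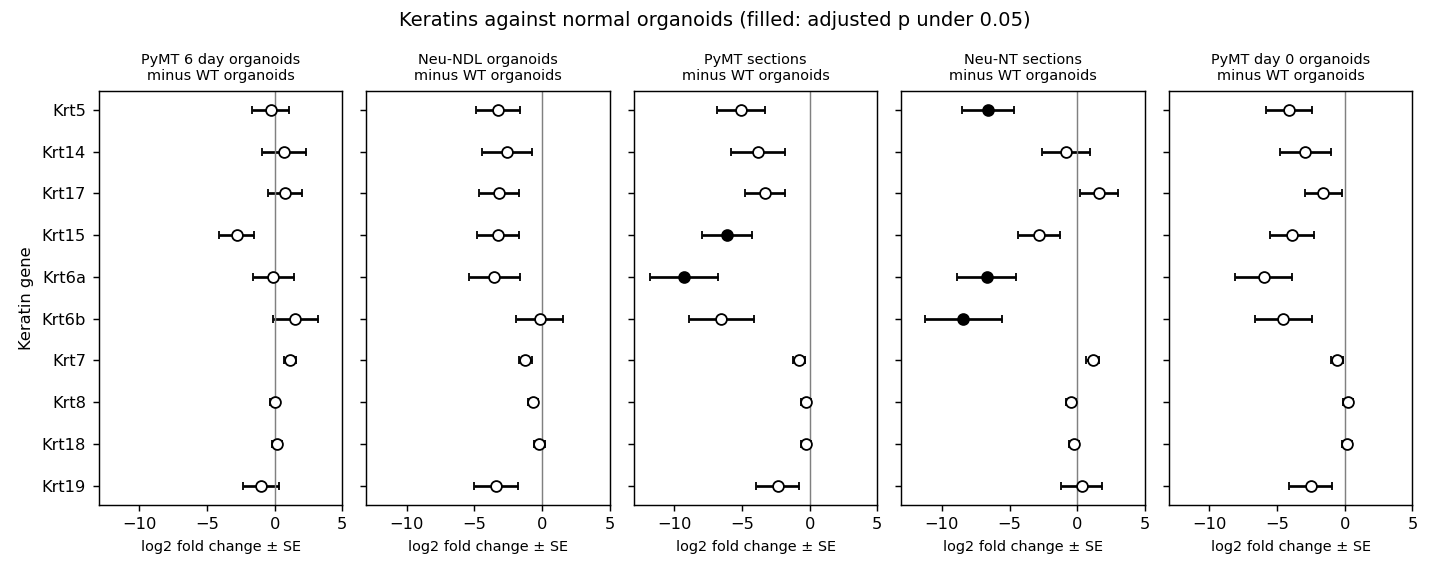
Log2 fold changes with standard errors of the 10 keratins in the 5 comparisons with WT organoids, which share the 3 WT libraries. Filled points passed an edgeR adjusted p under 0.05: Krt15 and Krt6a in PyMT sections, and Krt5, Krt6a and Krt6b in Neu-NT sections.

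PyMT organoids on day 0 had 0 calls against WT organoids (11.3% of all genes changed; 4 of 10 members at an unadjusted p under 0.05, Krt5, Krt15, Krt6a and Krt6b; 2 by DESeq2, Krt5 and Krt6a). All but Krt8 and Krt18 were lower in all 3 libraries (25.4% of all genes) and Krt8 was higher in all 3 (23.4%). Krt6a had a log2 fold change of -5.99 ± 2.12 (SE; edgeR adjusted p = 0.0770), and Krt5 a log2 fold change of -4.12 ± 1.72 (SE; edgeR adjusted p = 0.124). With only the day 0 and WT libraries in the fit, 7 of 10 were called, all but Krt17, Krt8 and Krt18, and so were 34.0% of all genes. The groups differ in genotype and in time in culture, which cannot be told apart. The 6 endothelial markers summed to 97.0 to 201 CPM at day 0 against 10.3 to 53.2 CPM in WT. The 8 macrophage markers summed to 312 to 480 against 167 to 258 CPM, and the 8 fibroblast markers overlapped (716 to 983 against 467 to 847 CPM). The part of these markers was not tested. The 5 comparisons with WT organoids share the WT libraries, so their results are not independent of one another.

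From day 0 to 6 days of culture in PyMT organoids Krt7 rose, the single call among the 10, where 4.10% of all genes rose and 8.22% changed. Krt7 had a log2 fold change of 1.69 ± 0.43 (SE; edgeR adjusted p = 0.0290). Day 6 replicate 3, at 131 CPM, was inside the day 0 range of 121 to 135 CPM and the other 4 libraries were above it. The call was lost on leaving out any day 0 or undated library. It was also lost with the replicate number as a block over the day 6 and day 0 libraries alone (1.32, edgeR adjusted p = 0.487). Krt6b and Krt6a had the largest differences: log2 fold change of 6.07 ± 2.20 (SE; edgeR adjusted p = 0.0931), and log2 fold change of 5.89 ± 2.07 (SE; edgeR adjusted p = 0.0854). Without day 6 replicate 3 both were called (6.38 and 6.19, edgeR adjusted p = 0.0181 and 0.0130), in a fit that called 24.2% of all genes. Without day 6 replicate 2 they were at 2.90 and 4.38 (edgeR adjusted p = 0.288 and 0.141). Krt5 differed by 3.83 ± 1.63 and Krt14 by 3.64 ± 1.88, and Krt19 was higher in all 5 libraries (1.49 ± 1.43; 5.44% of all genes were), none of them called. Krt8 and Krt18 differed by -0.21 ± 0.33 and -0.01 ± 0.34. Markers of other cells also differed: the 8 fibroblast markers summed to 716 to 983 CPM at day 0 and to 63.0 to 174 CPM in 4 later libraries (2753 in day 6 replicate 3), and the 6 endothelial markers to 97.0 to 201 against 4.94 to 6.54 CPM (147 in that replicate). None of these markers was at 0 in either group, and their part was not tested.

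Between day 0 organoids and PyMT sections no keratin was called (0.444% of all genes were; 0 of 10 at an unadjusted p under 0.05 and 0 by DESeq2). This comparison sets organoids directly after preparation against whole tumor sections. Krt17 and Krt15 were higher in every day 0 library (7.60% of all genes). Krt17 had a log2 fold change of 1.74 ± 1.40 (SE; edgeR adjusted p = 0.891), and Krt15 a log2 fold change of 2.20 ± 1.60 (SE; edgeR adjusted p = 0.875). Day 0 organoids also held markers of other cells. The 6 endothelial markers summed to 97.0 to 201 CPM at day 0 and 104 to 161 CPM in sections. The 8 macrophage markers summed to 312 to 480 against 508 to 805 CPM. The 8 fibroblast markers summed to 716 to 983 against 1972 to 5992 CPM. The part of these markers was not tested.

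Krt7 was also the only keratin called between the tumor models. It was lower in PyMT than in Neu-NT sections (log2 fold change of -1.92 ± 0.47 (SE; edgeR adjusted p = 0.0188)), in every section, as were 12.9% of all genes, where 5.13% of all genes were lower and 9.70% differed. Without Neu-NT replicate 3 the difference was -1.53 (edgeR adjusted p = 0.0402), and leaving out any PyMT section ended the call. Without that replicate Krt5 and Krt19 were called as higher in PyMT sections, by 7.42 and 6.08 (edgeR adjusted p = 0.0289 and 0.000640), in a fit that called 16.6% of all genes. With it Krt5 differed by 1.53 ± 1.57 and Krt19 by -2.69 ± 1.60. Krt7 was higher in 6 day PyMT than in Neu-NDL organoids (log2 fold change of 2.37 ± 0.45 (SE; edgeR adjusted p = 0.0104); 2.42% of all genes were higher and 7.12% differed), in every library, as were 6.36% of all genes and Krt19 (2.37 ± 1.50, not called). This call held with each single library of the groups compared left out (2.02 to 2.77) and was lost with only those libraries in the fit.

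Neu-NT section 3 was marked by its chromosome 11 keratins, and the list of genes around them was drawn up with that pattern known. The type I keratin genes of chromosome 11 span 99232761 to 100269871. In that section 35 of 40 neighbouring genes outside the keratin family were more than 2-fold above the WT mean, with a median log2 ratio of 2.98. The median was -0.04 and -0.11 in Neu-NT sections 1 and 2. Krt19, Krt17 and Krt14 had log2 ratios of 1.92, 3.19 and 0.81 there and Krt15 -1.22, whereas in sections 1 and 2 all 4 were below the WT mean. Of 49 genes outside the family within 1000000 bases of the chromosome 11 cluster, taken by position and WT level, 37 were more than 2-fold above the WT mean in section 3 (median 2.82). That window covers the stretch of the list and also holds Erbb2. The sets share genes, so the second count is no independent support for the first. The 30 genes taken likewise around the chromosome 15 cluster had a median of 0.09 in section 3. Keratins of chromosome 15 also differed between the sections. Krt5 was at 26.4 CPM in section 3, below WT organoids but above its 0.0756 and 0.225 CPM in sections 1 and 2. Krt8 had a log2 ratio to WT of 0.11 in section 3 against -0.89 and -0.77. Krt18 went the other way, with -0.58 against -0.27 and 0.11. The sum of type II keratins per kilobase was 0.226 of the type I sum in that section and 0.522 to 0.893 of it in the other 19 libraries. Shared stretches may lower some of these keratins more than others, so the sizes of these ratios are uncertain. What moved the chromosome 11 genes in this section was not tested.

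**Figure D4:**
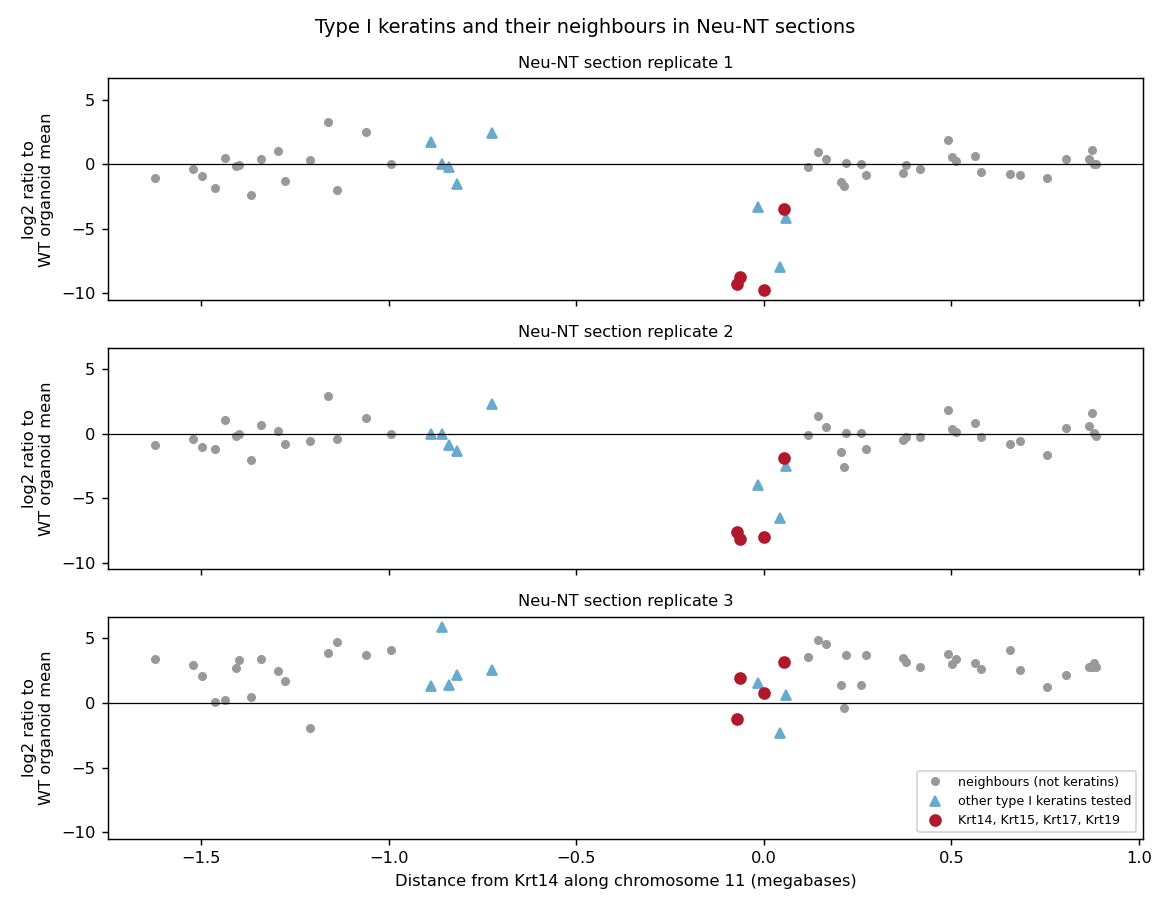
Log2 ratio to the WT organoid mean of genes along chromosome 11 in each Neu-NT section, by distance from Krt14 in megabases. Red points are Krt14, Krt15, Krt17 and Krt19, blue triangles other type I keratins and grey points neighbouring genes outside the family, which lie around 0 in sections 1 and 2 and mostly above 1 in section 3.

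Genes with the course most like a keratin's were sought by the root mean square difference of centred log2 CPM over the 20 libraries, among 10012 protein coding genes of at least 10 CPM, with keratins left out of the ranking and given beside it. Nearest to Krt14 outside the keratin family were Trim29, Bnc1, Anxa8, Lama3 and Lgals7 (1.16 to 1.45 log2 units, where Krt14's own spread about its mean was 3.13), and Krt5 was at 1.40. Nearest to Krt6a were Bnc1, Aldh3a1, Trim29, Col17a1 and Dsc3 (1.67 to 1.89, own spread 4.33), and Krt6b was nearer, at 1.47. Nearest to Krt8 were Tsta3, Slc25a17, Tomm22, Vopp1 and Nsmce2 (0.321 to 0.339, own spread 0.513), and Krt18 was at 0.356. Of these 5 genes, 4 (all but Vopp1) are on chromosome 15, as are Krt8 and Krt18. The median log2 ratio to WT of 415 chromosome 15 genes was 0.42 in day 6 replicate 3 and 0.39 in PyMT section 3, the libraries with the most Krt8, and between -0.14 and 0.39 in the other 18. It was 0.39 in day 6 replicate 1 too, where Krt8 had a log2 ratio of 0.24. The median of 880 chromosome 11 genes was 0.50 in day 6 replicate 3 and 0.45 in PyMT section 3. In PyMT section 1, where Krt8 had a log2 ratio of -0.89, it was 0.44. These medians were looked at after the nearest genes were known, and their part in the Krt8 levels was not tested.

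Partner lists put the keratins in their setting. Of 16 tested proteins that anchor keratins at desmosomes and hemidesmosomes, 6 fell in PyMT sections against WT organoids, where 6.05% of all genes fell, with a median over the list of -0.19. The largest falls were those of the desmosomal Dsc3 (-7.06 ± 1.67), Dsg3 (-5.74 ± 1.57) and Pkp1 (-4.74 ± 1.39) and the hemidesmosomal Col17a1 (-5.74 ± 1.48). In Neu-NT sections Dsc3 (-9.29 ± 1.93) and Col17a1 (-7.27 ± 1.61) fell, and Jup, the desmosomal plakoglobin gene next to the chromosome 11 keratins, was called as higher (3.16 ± 0.79). Its log2 ratio to the WT mean was 4.59 in section 3 against 0.39 and 0.53 in sections 1 and 2. Of all genes 8.47% fell in that comparison. From day 0 to 6 days in PyMT organoids Pkp1 (4.58 ± 1.34) and Dsp (2.33 ± 0.66) rose, where 4.10% of all genes did.

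Of the 16 basal and myoepithelial markers, which share Col17a1, Itgb4 and Itga6 with the anchoring list, 6 fell and 1 rose in 6 day PyMT against WT organoids (2.49% of all genes fell and 1.40% rose), with a median over the list of -0.72. The largest falls were those of the smooth muscle genes Myh11 (-5.24 ± 0.72), Acta2 (-4.66 ± 0.55) and Tagln (-4.40 ± 0.59) and the oxytocin receptor gene Oxtr (-5.08 ± 0.83), and the rise was that of the hemidesmosomal integrin Itgb4 (1.41 ± 0.32). Krt5 and Krt14 did not pass in the same comparison, as given above. From day 0 to 6 days the laminin subunit gene Lama3 (3.94 ± 1.07) and the cadherin gene Cdh3 (2.68 ± 0.57) rose while Myh11 (-2.56 ± 0.65) fell. In the other comparisons with WT organoids 11 of 16 fell in PyMT sections (6.05% of all genes), 10 at day 0 (5.73%), 9 in Neu-NT sections (8.47%) and 7 in Neu-NDL organoids (2.06%).

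Of the 18 luminal markers 4 fell and 1 rose in PyMT sections against WT organoids, where 6.05% of all genes fell and 6.45% rose. At day 0, 4 fell and 2 rose (5.73% and 5.54% of all genes). In Neu-NT sections 5 fell and 4 rose (8.47% and 10.5%). In Neu-NDL organoids 3 fell (2.06% of all genes) and in 6 day PyMT organoids 2 fell (2.49%). The progesterone receptor gene Pgr fell in all 5 comparisons with WT organoids (-4.59 to -9.45), where Krt8 and Krt18 passed in none. The pioneer factor gene Foxa1 fell in PyMT sections (-6.03 ± 1.29), at day 0 (-4.32 ± 1.18) and in Neu-NT sections (-7.20 ± 1.38). Among the rises, named after their values were seen, were the claudin gene Cldn4 at day 0 (2.65 ± 0.77) and in Neu-NT sections (2.51 ± 0.77) and the transcription factor gene Ehf in PyMT sections (1.88 ± 0.50). The medians over the luminal list in the 5 comparisons were between -0.37 and 0.28.

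Other keratins showed how far PyMT day 6 replicate 2 stood from its group. Besides the highest Krt14, Krt5, Krt6a and Krt6b of the series it held 2245 CPM of Krt16, the injury keratin that pairs with Krt6, against 0.227 to 105 CPM in the other 19 libraries. It also had 1542 CPM of Krt79 (at most 74.2 elsewhere), 470 CPM of Krt90 (at most 1.33) and 217 CPM of Krt1, a keratin of the upper epidermis (at most 55.9, in Neu-NDL replicate 2). Its 15 squamous markers summed to 1416 CPM, against 34.4 to 211 CPM in the other libraries. Of the 21 other keratins tested, 1 fell in 6 day PyMT against WT organoids (Krt83, named after its values were seen), where 2.49% of all genes fell and 3.89% changed. Krt23, a type I keratin, rose in PyMT sections (2.17 ± 0.65) and Neu-NT sections (2.43 ± 0.65) against WT organoids, and Krt78 fell in both (-6.38 ± 1.57 and -5.59 ± 1.50). They are examples from the 21. Of all genes 6.45% rose and 6.05% fell in PyMT sections, and 10.5% rose and 8.47% fell in Neu-NT sections.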

How the data were processed

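RNA was extracted with TRIzol and its polyadenylated fraction entered TruSeq library preparation, per the labels' protocols. The authors deposited raw read counts per Ensembl gene ID for each of the 20 libraries, and CASAVA, FastQC, STAR, HTSeq, DESeq2 and the mm10 genome are named in the submitters' processing notes. Versions, annotation release, strand setting, counting mode and read length are not given in the sources used here. Some small RNA gene models overlap Krt5, Krt6a or Krt6b on the other strand, so reads of the overlaps may be counted on either or neither.

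Gene names and positions came from GENCODE M21, which held 44671 of the 45318 gene IDs, after the version of each ID was removed. Samples were grouped by their titles. Genes with enough counts by filterByExpr (18698) were fitted with edgeR 4.0.16 (TMM scaling, robust quasi-likelihood F test, 7 groups, 13 residual degrees of freedom, all 20 libraries in R 4.3.3), and p-values were adjusted by Benjamini-Hochberg over all of them. Standard errors were the log2 fold change divided by the root of F. Levels between genes were divided by the length of the longest protein coding transcript. The fit was tested on simulated counts of 18698 genes for the Neu-NDL and WT organoids. Changes were planted in a small random set of genes, all with a mean level above a minimum. It called 76% of the genes changed 4-fold and 16% of those changed 2-fold. These shares do not cover genes with low counts. No pair of replicates agreed within sampling noise.

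All 10 members were tested in every comparison, but in several comparisons the text gives values for only some of them. The other keratins with a group mean of at least 10 CPM are drawn in the heat map of keratin levels by library. Only some of them have values in the text, so these are examples. The 5 nearest genes are given for Krt14, Krt6a and Krt8, and at most 4 called genes of each other list, by size of change. The members and lists were chosen with earlier results of these data known. Alternatives were DESeq2 1.42.0, other size factors, no filter on low counts, subsets of the libraries, single libraries left out and the replicate number as a block. Same-numbered day 0 and day 6 PyMT organoids deviated together over genes (r = 0.287, 0.428 and 0.317 for replicates 1 to 3). Other group pairs were also positive in all 3 numbers. Among them were PyMT sections with Neu-NDL organoids (0.223, 0.056 and 0.246) and with day 6 PyMT organoids (0.020, 0.244 and 0.336).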

Additional observations from a re-analysis of the deposited data

How the results depend on the processing

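Calls among the 10 keratins depended on which libraries entered the fit. PyMT day 6 replicate 3 and Neu-NT section 3 were both left out after their keratin values were seen. Day 6 replicate 2, at the opposite end of its group, was kept, so the counts that follow are no independent support for a change. The number called against WT organoids was 7 in PyMT sections (27.0% of all genes in the same fit), 6 in Neu-NT sections (29.0%), 5 at day 0 (24.8%), 5 in Neu-NDL organoids (14.5%) and 2 in 6 day PyMT organoids (16.5%). It was then 6 from day 0 to 6 days (30.7%), 4 between the sections (23.2%) and 6 between PyMT and Neu-NDL organoids (24.3%). With only the libraries compared in the fit the counts in that order were 8, 2, 7, 3 and 1 against WT (28.8, 18.7, 34.0, 11.3 and 3.57% of all genes), and 0, 0 and 0 (0.388, 2.05 and 0.0641%). Without a filter on low counts, PyMT and Neu-NT sections each had 0 calls against WT organoids (4.96 and 8.95% of all genes). With Neu-NT replicates 1 and 2 summed, Neu-NT sections had 0 (13.2%). DESeq2 called 2 at day 0 against WT (16.6% of all genes), 3 from day 0 to 6 days (14.3%), 2 between the sections (15.8%) and 2 between PyMT and Neu-NDL organoids (13.4%). The day 6 group alone gave 0 calls against day 0 (0.626% of all genes). The replicate block gave 1 call at day 0 against WT (Krt6a, with 12.0% of all genes) and 3 in PyMT sections (13.6%). Over the day 6 and day 0 libraries alone it gave 0 (0.0%). It ended no call in the fit of all libraries. Day 0 against PyMT sections had 0 calls under each alternative run.

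Leaving out 1 library at a time moved the calls among all genes as well. Against WT it gave 0 to 5 calls in Neu-NT sections (9.85 to 21.8% of all genes) and 0 to 0 in PyMT sections (2.83 to 9.27%). It gave 0 to 0 at day 0 (3.32 to 5.15%), 0 to 0 in Neu-NDL (0.619 to 6.95%) and 0 to 1 in 6 day PyMT organoids (0.411 to 10.8%). Calls were 0 to 3 from day 0 to 6 days (1.24 to 24.2%), 0 to 3 between the sections (3.89 to 16.6%), and 1 to 2 between PyMT and Neu-NDL organoids (0.878 to 16.6%).

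Directions turned in the differences that follow, and the cause was not tested. In 6 day PyMT against WT organoids, with both libraries out, log2 differences were 0.035 for Krt5, 0.23 for Krt6a, -0.13 for Krt8 and -0.024 for Krt18. The undated group alone gave -0.14 for Krt17, -0.22 for Krt6b, -0.34 for Krt8 and -0.013 for Krt18, the day 6 group alone 0.91 for Krt6a, the replicate block -1.16 for Krt6b and no filter -0.031 for Krt8. Leaving out single libraries gave -0.33 to 1.04 for Krt14, -0.58 to 1.11 for Krt17, -1.60 to 0.22 for Krt6a, -1.61 to 2.12 for Krt6b, -0.16 to 0.12 for Krt8 and -0.058 to 0.33 for Krt18. In Neu-NT sections against WT organoids, with both out, Krt17 was at -2.52 and Krt19 at -8.43, and the replicate block gave -0.73 for Krt19. Single libraries left out gave -2.53 to 2.15 for Krt17 and -8.43 to 0.92 for Krt19. From day 0 to 6 days Krt8 was at 0.13 with the day 6 group alone and 0.058 with the block over day 6 and day 0, and Krt18 at 0.19 and 0.053, 0.030 with the block over all libraries, 0.015 without a filter and -0.25 to 0.13 with single libraries out. Between PyMT and Neu-NT sections, with both out, Krt14 was at 4.90, Krt15 at 2.64, Krt6a at 0.71 and Krt19 at 6.05, and with replicates summed Krt18 was at 0.040. Single libraries out gave -3.80 to 4.90 for Krt14, -4.77 to 2.65 for Krt15, -3.47 to 0.73 for Krt6a, -0.47 to 0.55 for Krt8, -0.70 to 0.20 for Krt18 and -3.27 to 6.08 for Krt19. Krt6b ranged from -3.12 to 0.40 in Neu-NDL against WT organoids, from -0.062 to 2.63 in day 0 against sections and from -1.44 to 4.65 in PyMT against Neu-NDL organoids (-0.034 with the undated group alone), and Krt19 from -0.80 to 0.28 in day 0 against sections.

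Low counts limit Krt6a and Krt6b: 3 reads correspond to 0.106 to 0.135 CPM in the libraries where they had 0, so their falls in sections have no firm size.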
